A study of Mus musculus with 2 samples.

Results

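Gng8, Gpr151, Rspo3 and Tesc were described in RNA from the embryonic mouse midbrain, 4 of the 43346 Ensembl genes quantified. They were named as a set of habenula and dorsal diencephalon genes and matched by symbol to 1 identifier each. They were chosen by their TPM and by their log2 ratio between the embryo pools, so both are given here as descriptions with no test. Total RNA came from the midbrain of healthy B6NCrl mouse embryos at embryonic day 16.5, in 1 group of 2 biological replicates with no genetic change or treatment named. Each replicate was a pool of embryos of both sexes, and both carry the same donor identifier. The pool of replicate 2 came from 37 embryos, while the labels state no number for replicate 1. From each pool 10 ng of RNA longer than 200 nucleotides entered the library together with spike-in sequences. Both labels point to 1 excision protocol, which was not used here, and they do not say whether the pools were dissected together.

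The habenula is a pair of small nuclei in the dorsal diencephalon, next to the roof of the midbrain, and the thalamus and pretectum lie beside it. Its neurons send axons through the fasciculus retroflexus to the ventral midbrain, chiefly to the interpeduncular nucleus and neighbouring cell groups, and the pathway is known for its part in aversion and nicotine responses. Gpr151 encodes an orphan G protein-coupled receptor that is a known marker of habenular neurons and their axons. Gng8 encodes a gamma subunit of heterotrimeric G proteins and is known from the medial habenula and from olfactory sensory neurons. Rspo3 encodes a secreted R-spondin, which strengthens Wnt signalling by binding Lgr receptors and sparing Frizzled receptors from removal by the ubiquitin ligases Znrf3 and Rnf43. Tesc encodes tescalcin, a calcium-binding protein of the calcineurin B homologous family.

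All 4 genes were present in both pools and lower in replicate 2. Their levels were given as TPM, the share of a transcript among all transcripts of a library on a fixed total, which is corrected for length and so allows genes to be compared with each other. Expected counts, the estimated reads per gene, summed to 36576263 in replicate 2 and 31830355 in replicate 1. Spike-in sequences took 2.23% of them in replicate 2 and 1.49% in replicate 1. A value with ± gives the mean of both pools and their SD (n = 2). Each replicate stands alone on its side of a ratio between pools, so no p-value can be had, and intervals of ratios cover counting error only. The reads carry no molecular identifiers and so are not independent molecules, and embryos of 1 pool are not replicates. The deposited credibility bounds of TPM lay lower in replicate 2 without overlap in all 4 genes, against 12.5% of the 14412 genes compared, and since the genes were chosen by this difference nothing is read from that count. In such bulk RNA, fewer cells of a type and less RNA per cell cannot be told apart.

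**Figure D1:**
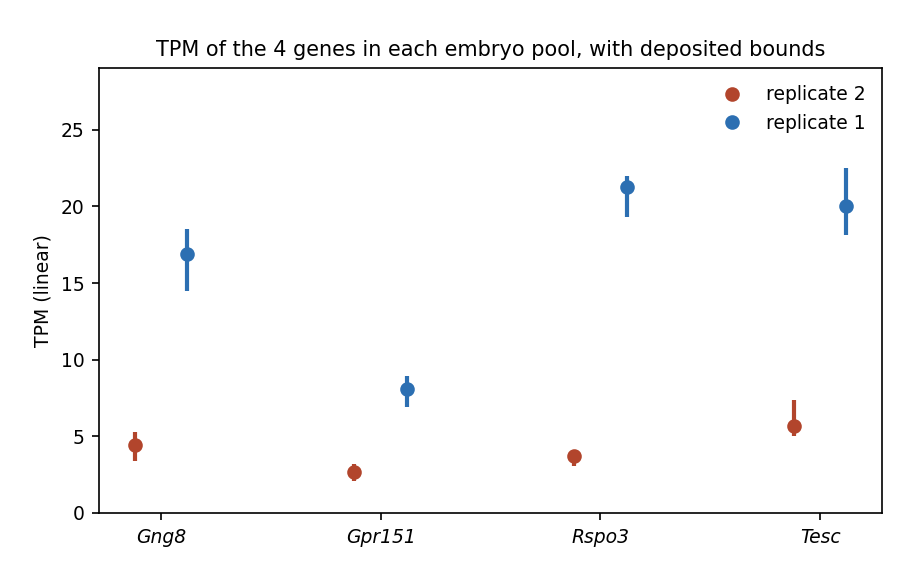
TPM (linear axis) of the 4 genes in replicate 2 and replicate 1, with vertical lines for the deposited credibility bounds, whose level is not stated. In each gene the replicate 2 point, between 2.69 and 5.65 TPM, lies below the replicate 1 point, between 8.10 and 21.3 TPM, and the bounds do not overlap.

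Rspo3, the secreted Wnt enhancer, showed the widest gap of the set. It was at 3.70 TPM in replicate 2, with bounds of 3.09 to 4.14, and at 21.3 TPM in replicate 1, with bounds of 19.3 to 22.0. Replicate 1 is the high pool, and the bounds of the pools lie far apart. Counts were 183 in replicate 2 and 903 in replicate 1, and after scaling by TMM factors the log2 ratio, replicate 2 minus replicate 1, was -2.48 with a 95% interval of -2.72 to -2.25. This makes Rspo3 5.59-fold lower in replicate 2. Over the pools it averaged 12.5 ± 12.4 TPM, an SD as large as the mean. The gene (ENSMUSG00000019880.9) is protein-coding and lies on the minus strand of chromosome 10, from 29452416 to 29535867 of GRCm38. In GENCODE M21 the antisense gene Gm48159 and the unclassified Gm20276 overlap it. Neither was analysed here, and whether reads were counted by strand is not given, so RNA of these genes and of Rspo3 cannot be told apart where they overlap.

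Among the R-spondins the difference stood on Rspo3. Rspo1 was at 1.84 TPM in replicate 2 and 1.40 in replicate 1, Rspo2 at 3.24 in replicate 2 and 3.59 in replicate 1, and Rspo4 at 0.430 in replicate 2 and 0.170 in replicate 1. Rspo1, Rspo2 and Rspo4 together summed to 5.51 TPM in replicate 2 and 5.16 TPM in replicate 1. Rspo3 was the highest R-spondin in both pools, with 40.2% of their TPM in replicate 2 and 80.5% in replicate 1. That share does not depend on scaling between libraries, but it restates the TPM by which Rspo3 was chosen and is no separate support. The receptor Lgr4 was at 5.69 TPM in replicate 2 and 6.0 in replicate 1, Lgr5 at 1.16 in replicate 2 and 1.10 in replicate 1, and Lgr6 at 1.01 in replicate 2 and 0.920 in replicate 1. These receptor levels lie close together in the pools.

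The other R-spondins, receptors, ligases and Wnt feedback genes differed less than Rspo3. Since Rspo3 was chosen by its ratio, nothing is read from that contrast. Ratios were compared only where expected counts averaged 50 or more, and without Rspo3 the list held 12 such genes, of which 7 were lower and 5 higher in replicate 2 and 0 reached 2-fold. Their median log2 ratio was -0.03, against 0.01 over all 14412 genes compared, of which 48.1% were lower in replicate 2. Of all genes compared, 0.291% were 2-fold or more lower in replicate 2 and 0.354% 2-fold or more higher. A count of 0 at 2-fold, here and in the lists below, is near these shares, so nothing is read from it. The highest members of this list were the Wnt effector Lef1 at 68.6 TPM in replicate 2 and 58.8 in replicate 1, the Dishevelled antagonist Nkd1 at 23.3 in replicate 2 and 29.5 in replicate 1, and the Wnt target Sp5 at 17.8 in replicate 2 and 11.1 in replicate 1. Nkd1 and Sp5 thus differed in opposite directions.

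Gng8 was at 4.41 TPM in replicate 2, with bounds of 3.40 to 5.30, and at 16.9 TPM in replicate 1, with bounds of 14.5 to 18.5. It averaged 10.7 ± 8.85 TPM. The counts were 78 in replicate 2 and 257 in replicate 1, and the log2 ratio was -1.90 (95% interval -2.29 to -1.53), or 3.72-fold lower in replicate 2. Of the 4 genes it had the fewest reads in replicate 2, where 1 read was worth 0.0565 TPM. Gng8 (ENSMUSG00000063594.4) lies on the plus strand of chromosome 7, from 16891786 to 16895436.

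The gamma subunits spanned a wide range of levels, with Gng2, Gng3, Gng4, Gng5 and Gng10 well above Gng8 in both pools. Gamma subunits carry the lipid anchor that holds the beta-gamma dimer at the membrane. Gng3 was at 443 TPM in replicate 2 and 396 in replicate 1, and Gng2 at 388 in replicate 2 and 390 in replicate 1. Gng5 had 225 TPM in replicate 2 and 246 in replicate 1, and Gng10 had 187 in replicate 2 and 186 in replicate 1. Lower levels were seen for Gng4 (85.9 in replicate 2, 57.95 in replicate 1), Gng12 (35.4 in replicate 2, 28.1 in replicate 1), Gng7 (21.3 in replicate 2, 18.2 in replicate 1) and Gng11 (19.1 in replicate 2, 20.1 in replicate 1). Gng13 was at 6.09 TPM in replicate 2 and 2.69 in replicate 1, on 36.8 counts in replicate 2 and 13.9 in replicate 1, the opposite direction to Gng8. Gngt1 and Gngt2, the gamma subunits of photoreceptors, were at 0.0400 and 2.16 TPM in replicate 2 and at 0.200 and 2.18 TPM in replicate 1.

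In this family Gng8 stood in place 10 of 12 in replicate 2 and in place 9 in replicate 1, with 0.311% of gamma subunit TPM in replicate 2 and 1.24% in replicate 1. The others summed to 1414 TPM in replicate 2 and 1348 in replicate 1. Of the 8 other gamma genes with enough counts, 3 were lower and 5 higher in replicate 2 and 0 reached 2-fold, with a median log2 ratio of 0.13. Of the beta subunits, their partners, 0 of 5 were at 2-fold, with Gnb1 at 1045.0 TPM in replicate 2 and 1054 in replicate 1. Gnb2 was at 429 TPM in replicate 2 and 422 in replicate 1, and Gnb4 at 86.9 in replicate 2 and 84.8 in replicate 1.

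Gpr151 was the lowest of the set in both pools. It had 2.69 TPM in replicate 2, with bounds of 2.12 to 3.20, and 8.10 TPM in replicate 1, with bounds of 6.90 to 8.94, and averaged 5.395 ± 3.83. With 89 counts in replicate 2 and 230 in replicate 1 its log2 ratio was -1.55 (95% interval -1.92 to -1.19), or 2.92-fold lower in replicate 2. Gpr151 (ENSMUSG00000042816.3) is a gene of 1 exon on the minus strand of chromosome 18, from 42577881 to 42579652. Of its relatives, the galanin receptor Galr1 was at 1.66 TPM in replicate 2 and 1.81 in replicate 1, and Galr2 at 0.380 in replicate 2 and 0.530 in replicate 1. Galr3 was not analysed here. The G alpha subunits of the same list were far higher and close between the pools. Gnai2 was at 231 TPM in replicate 2 and 237 in replicate 1, Gnao1, the main G alpha of neurons, at 197 in replicate 2 and 196 in replicate 1, and Gnai3 at 95.7 in replicate 2 and 105 in replicate 1. Without Gpr151 this list had 0 of 7 compared genes at 2-fold and a median log2 ratio of 0.09.

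Tesc was at 5.65 TPM in replicate 2, with bounds of 5.04 to 7.37, and at 20.0 TPM in replicate 1, with bounds of 18.1 to 22.5, and averaged 12.8 ± 10.2. Counts were 112 in replicate 2 and 339 in replicate 1, and the log2 ratio was -1.78 (95% interval -2.10 to -1.47), or 3.43-fold lower in replicate 2. The gene (ENSMUSG00000029359.9) lies on the plus strand of chromosome 5, from 118027743 to 118061878. Its relative Chp1 was at 48.7 TPM in replicate 2 and 50.4 in replicate 1, and Chp2 at 0.850 in replicate 2 and 0.760 in replicate 1. Tesc took 10.2% of the TPM of these 3 genes in replicate 2 and 28.1% in replicate 1.

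Genes around tescalcin were close between the pools. The calcineurin genes Ppp3r1, Ppp3ca and Ppp3cb were at 183, 119 and 89.0 TPM in replicate 2 and at 179, 111 and 88.3 TPM in replicate 1. Without Tesc the list had 1 gene lower and 4 higher in replicate 2 and 0 of 5 at 2-fold.

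**Figure D2:**
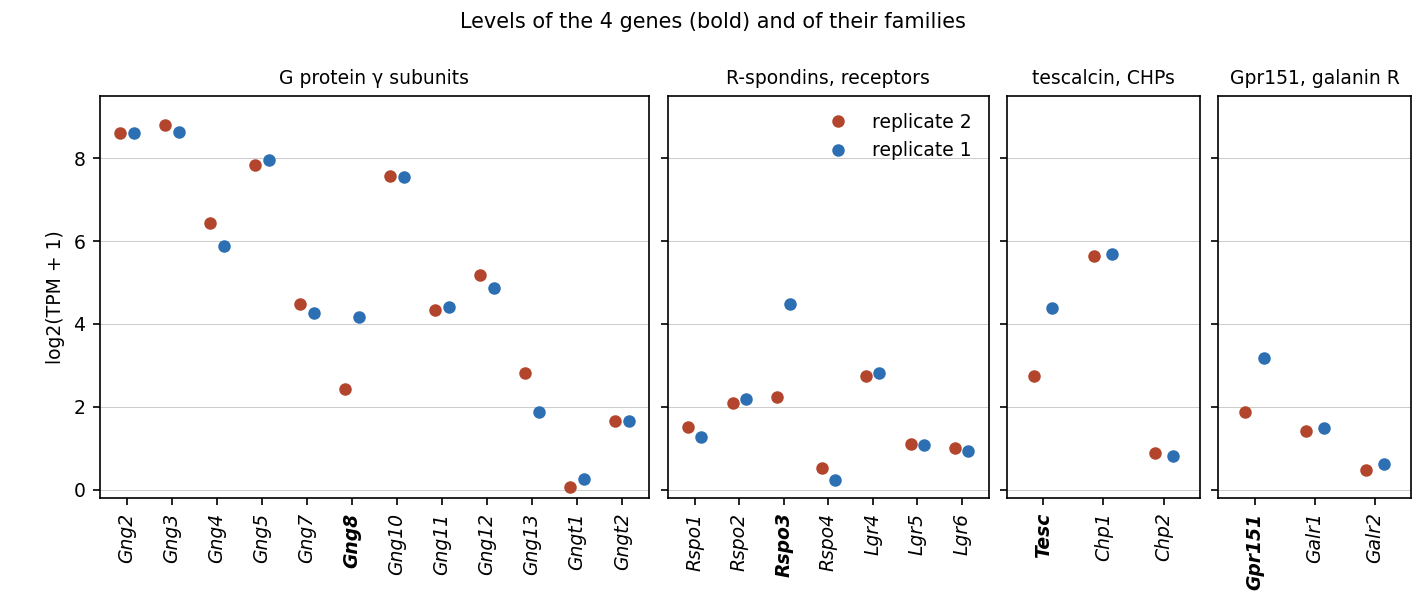
Levels as log2(TPM + 1) of the 4 genes (bold) and their relatives, with 1 point per gene for replicate 2 and 1 for replicate 1. In most relatives the points nearly coincide, as in Gng2 (388 TPM in replicate 2, 390 in replicate 1). Gng8, Rspo3, Tesc and Gpr151, which were chosen by this difference, are lower in replicate 2.

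Tesc had more than 1 transcript form in the deposited tables, and these forms differ at the end of exon 5. Tesc-201 is the protein-coding form of 8 exons, Tesc-202 is annotated as a target of nonsense-mediated decay, and Tesc-203 keeps the intron between exons 5 and 6. Exon 5 of Tesc-201 ends at position 118056438 of chromosome 5 and exon 6 begins at 118056537. Tesc-202 uses a splice site 5 bases further on, and Tesc-203 keeps all 98 bases of the intron, from 118056439 to 118056536. The 30 bases across this point, read from the GENCODE M21 transcripts (GRCm38, plus strand), are shown because they are what separates the forms there. They begin at 118056424, and capitals mark bases beyond the end of exon 5 of Tesc-201.
Tesc-201: gaagagtatagaaatgtggtggaggagctg
Tesc-202: gaagagtatagaaatGTAAAgtggtggagg
Tesc-203: gaagagtatagaaatGTAAAGTATGCTCTC

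By the deposited shares the coding form held most of the Tesc TPM in both pools, but the bounds do not settle this. With posterior mean values Tesc-201 took 52.95% in replicate 2 and 54.8% in replicate 1. The bounds of Tesc-201 overlapped those of Tesc-203 in each pool. Tesc-201 was at 3.83 TPM in replicate 2 (bounds 1.96 to 4.70) and 11.7 TPM in replicate 1 (bounds 8.17 to 14.01), a share of 67.9% in replicate 2 and 58.5% in replicate 1. Tesc-203 was at 1.81 TPM in replicate 2 (bounds 0.570 to 2.91) and 5.78 TPM in replicate 1 (bounds 3.21 to 8.27), a share of 32.1% in replicate 2 and 28.9% in replicate 1. Both forms had lower bounds in replicate 2 without overlap, against 7.29% of 28081 transcripts whose expected counts averaged 50 or more, and this is part of the difference by which Tesc was chosen.

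Tesc-202 was listed at 0 in replicate 2 with an upper bound of 1.14 TPM, and at 2.54 TPM in replicate 1 with an upper bound of 3.96. Its bounds overlap between the pools, and its share, 6.34% ± 8.97, is not resolved. With posterior mean values it took 6.55% in replicate 2 and 9.19% in replicate 1. The other 3 Tesc forms, Tesc-204, Tesc-205 and Tesc-206, were listed at 0 in both pools. With posterior mean values they took 2.22%, 3.89% and 7.17% in replicate 2 and 0.780%, 1.13% and 5.82% in replicate 1. Their levels are therefore not resolved either. Gng8, Gpr151 and Rspo3 had 1 transcript each in the tables, with lengths that differ from GENCODE M21, where Gng8 has 6 forms and Rspo3 has 2, so their forms were not resolved.

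**Figure D3:**
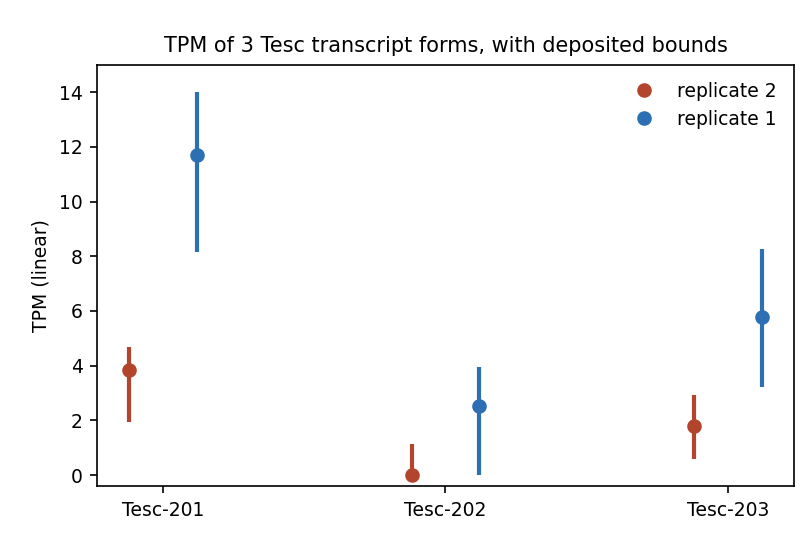
TPM (linear axis) of the 3 Tesc transcript forms with any signal, in replicate 2 and replicate 1, with vertical lines for the deposited credibility bounds. Tesc-201 (3.83 TPM in replicate 2, 11.7 in replicate 1) and Tesc-203 (1.81 in replicate 2, 5.78 in replicate 1) are lower in replicate 2, while the bounds of Tesc-202 overlap.

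Within a pool the order of the 4 genes was only partly resolved. In replicate 2 the order was Tesc, Gng8, Rspo3 and Gpr151, the bounds of each neighbouring pair overlapped, and the highest was 2.10-fold above the lowest. In replicate 1 Rspo3 came first, ahead of Tesc and Gng8, whose bounds overlapped with their neighbours. Gpr151 stood apart there, 2.09-fold below Gng8, with bounds that do not overlap. Of the pairs with Rspo3, its bounds lay below those of Tesc in replicate 2 and overlapped them in replicate 1, while they overlapped those of Gng8 in replicate 2 and lay above them in replicate 1.

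Compared with other genes, the set was of middle level. At least 1 TPM in both pools was reached by all 4, against 62.1% of 21474 protein-coding genes. Between 43.8% (Gpr151) and 50.9% (Tesc) of protein-coding genes lay below them in replicate 2, and between 55.0% (Gpr151) and 69.6% (Rspo3) in replicate 1.

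All 4 genes were 2-fold or more lower in replicate 2, against 0.291% of the 14412 genes compared (42 genes); since the set was chosen with this difference known, nothing is read from that count. None of the 4 was 2-fold or more higher, against 0.354% of all genes compared. In the order of ratios from the lowest, Rspo3 came at place 4, Gng8 at place 7, Tesc at place 9 and Gpr151 at place 13. The central 95% of all genes compared lay between log2 ratios of -0.45 and 0.55.

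**Figure D4:**
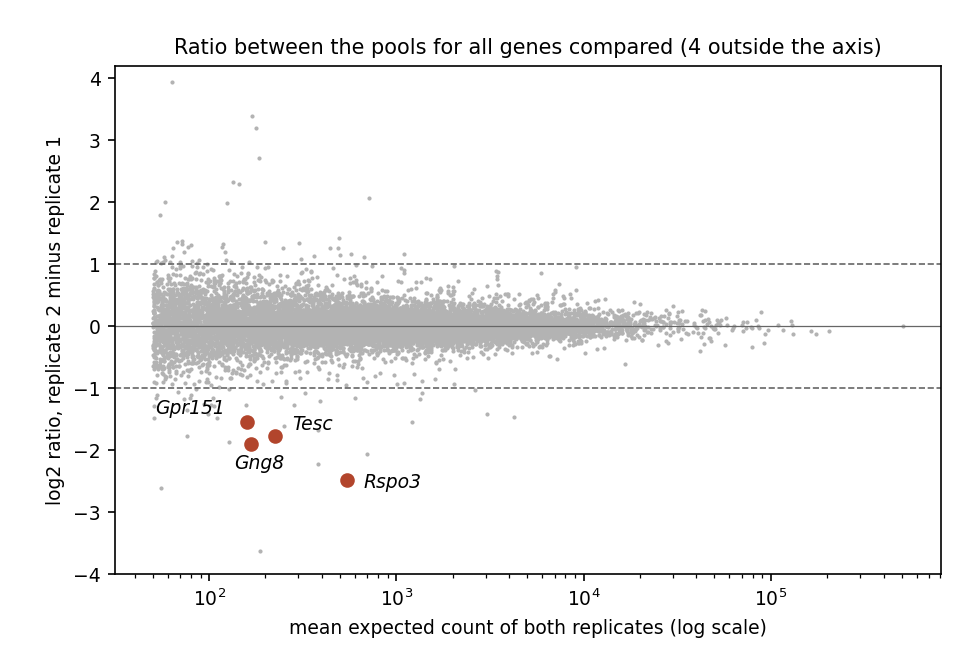
Log2 ratio, replicate 2 minus replicate 1, against the mean expected count (log axis) of 14412 genes, with dashed lines at 2-fold and 4 genes outside the axis. Rspo3 at -2.48, Gng8 at -1.90, Tesc at -1.78 and Gpr151 at -1.55 lie below the lower line.

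By distance in log2(TPM + 1) over the 2 libraries, the protein-coding genes nearest to Gng8 were Hbb-y (0.19), Neurog2 (0.23) and Robo3 (0.30). Hbb-y, an embryonic globin of red blood cells, was at 4.95 TPM in replicate 2 and 18.7 in replicate 1, and was also the nearest to Tesc (0.19). Neurog2, a proneural factor, was at 4.34 TPM in replicate 2 and 14.3 in replicate 1, and Robo3, an axon guidance receptor, at 3.56 in replicate 2 and 14.95 in replicate 1. The nearest to Rspo3 was Gng8 at 0.37, followed by Hbb-y (0.38) and Robo3 (0.48), and Tesc had Gng8 (0.38) and Zic1 (0.42) after Hbb-y. Near Gpr151 stood the embryonic globin Hba-x (0.25) and the histone gene Hist1h2ag (0.27). A likeness over 2 libraries says only that the levels are alike in both, and globin and histone genes stand beside neuronal ones in it.

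The name of the set was set beside other markers of the habenula. In bulk RNA a marker does not place its source, and many of these markers are also known from midbrain neurons. Of 17 medial habenula markers 13 reached 1 TPM in both pools, with the calcium-binding Calb2 at 240.0 TPM in replicate 2 and 263 in replicate 1, the substance P precursor Tac1 at 115 in replicate 2 and 107 in replicate 1, and the transcription factor Pou4f1 at 52.5 in replicate 2 and 63.7 in replicate 1. The acetylcholine synthesis gene Chat, the neurokinin B precursor Tac2, the nicotinic subunit Chrnb3 and the glutamate transporter Slc17a7 were below 1 TPM in both. They had too few counts to be compared. Tac2, Chrnb3 and Slc17a7 had 12, 69 and 44 counts in replicate 2 and 3, 23 and 20 in replicate 1, against the direction of the set. Chat had 25 in replicate 2 and 24 in replicate 1. Of the 13 with enough counts 7 were lower and 6 higher in replicate 2, with a median log2 ratio of -0.10 and 0 at 2-fold. The lowest of them was Nwd2 at -0.93, with 10.2 TPM in replicate 2 and 20.7 in replicate 1. Over all 14412 genes compared, 0.291% were 2-fold or more lower in replicate 2. The 0 of 13 is near that share, so nothing is read from it.

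Lateral habenula markers were mostly higher in replicate 2, but they are not limited to the habenula, so the list does not report on it alone. All 7 reached 1 TPM in both pools. In replicate 2, 1 was lower (Pou4f1, log2 ratio -0.19) and 6 were higher, 0 were at 2-fold and the median log2 ratio was 0.17. The growth cone gene Gap43 was at 1661 TPM in replicate 2 and 1506 in replicate 1, and the glutamate transporter Slc17a6 at 109 in replicate 2 and 99.55 in replicate 1. Of 7 markers of the pineal gland, the other organ of the epithalamus, Aanat, Pax4, Tph1, Crx and Asmt were below 1 TPM in both pools, and Asmt, of melatonin synthesis, had 0 counts in both. The homeobox gene Bsx was at 1.79 TPM in replicate 2 and 2.58 in replicate 1, on 30 counts in replicate 2 and 37 in replicate 1. Lhx4, the only one with enough counts for a ratio, was at 1.35 TPM in replicate 2 and 0.540 in replicate 1, a log2 ratio of 0.95.

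Markers of the neighbouring diencephalon were lower in replicate 2 more often than not. All marker lists were chosen with earlier results of these data known, so their directions and counts are descriptions only. Over all 14412 genes compared, 48.1% were lower in replicate 2 and 0.291% were 2-fold or more lower. In the list of thalamus and pretectum 8 of 12 were lower, the median log2 ratio was -0.24, and Olig3, Gbx2 and Prox1 were at 2-fold, with 1.12, 24.96 and 13.1 TPM in replicate 2 and 2.94, 53.1 and 28.0 TPM in replicate 1. The summed level of the list was 1089 TPM in replicate 2 and 1386 in replicate 1, most of it Tcf7l2, at 681 in replicate 2 and 906 in replicate 1. Lhx9 was at 105 TPM in replicate 2 and 131 in replicate 1, and Foxp2 at 78.3 in replicate 2 and 76.0 in replicate 1. Of the roof plate and subcommissural organ 4 of 5 compared genes were lower, with Wnt8b at 2-fold, 0.750 TPM in replicate 2 and 1.73 in replicate 1. The highest of that list were the roof plate factors Msx1, at 9.03 TPM in replicate 2 and 10.97 in replicate 1, and Lmx1a, at 4.92 in replicate 2 and 7.11 in replicate 1, and its sum was 21.6 TPM in replicate 2 and 26.7 in replicate 1.

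Genes of midbrain territory were present, with 8 of 10 at 1 TPM or more in both pools, and went the other way, with 8 of 9 compared genes higher in replicate 2, a median log2 ratio of 0.23 and a sum of 297 TPM in replicate 2 and 264 in replicate 1. Gata3, Otx2 and Meis2 were at 77.2, 64.5 and 58.8 TPM in replicate 2 and at 71.4, 56.3 and 53.1 TPM in replicate 1, and En2 and Lmx1b were below 1 TPM in both. This list, too, was chosen with earlier results known, so its direction is a description only. In bulk RNA the genes of these lists do not place their source either, so no difference in dissected region is read from them. The part of these list differences in the values of the 4 genes was not tested.

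**Figure D5:**
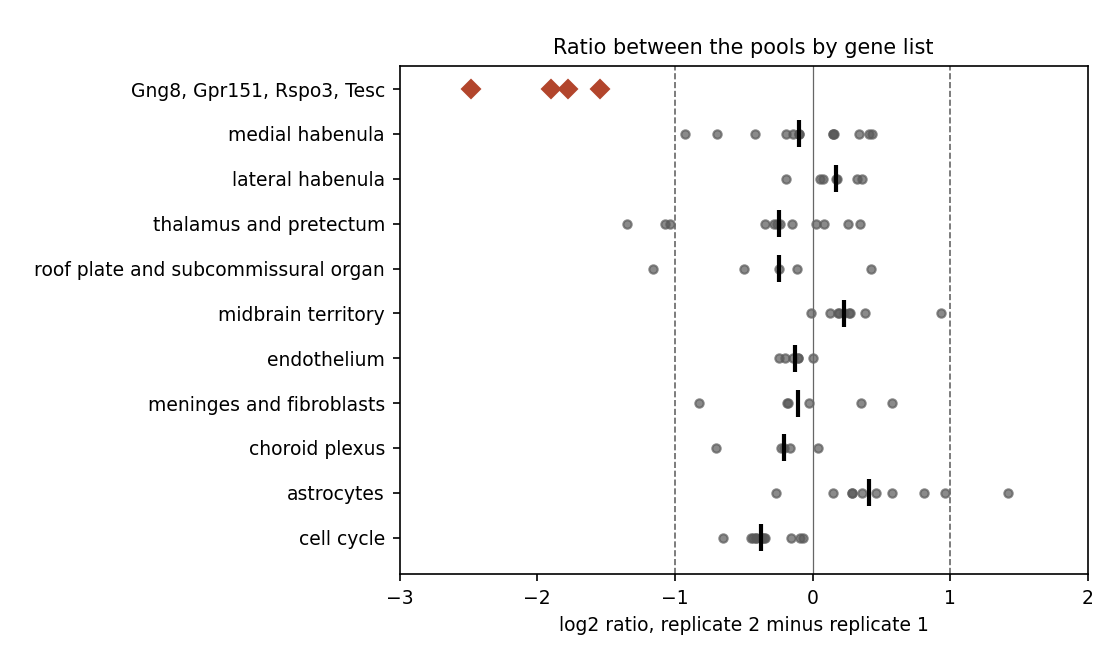
Log2 ratios, replicate 2 minus replicate 1, of the 4 genes (diamonds) and of the compared genes of 10 marker lists (points), with bars for list medians and dashed lines at 2-fold. The 4 genes lie between -2.48 and -1.55, and the lowest point of the lists is Olig3 at -1.35. Since the 4 genes were chosen by this ratio, nothing is read from their place below the lists.

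Lists of other cell types, also chosen with earlier results known, differed between the pools as well. Of the 14412 genes compared, 48.1% were lower in replicate 2. Astrocyte markers were higher in replicate 2 in 9 of 10, with a median log2 ratio of 0.41 and a sum of 1267 TPM in replicate 2 and 826 in replicate 1. Apoe, Sparcl1 and Glul, its highest members, were at 566, 176 and 131 TPM in replicate 2 and at 296, 121 and 121 TPM in replicate 1. All 12 cell cycle genes were lower in replicate 2, with a median of -0.37 and a sum of 245 TPM in replicate 2 and 306 in replicate 1. Their highest members Pcna, Cdk1 and Rrm2 were at 73.5, 26.4 and 31.3 TPM in replicate 2 and at 80.0, 41.5 and 35.0 TPM in replicate 1.

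Vessel, meningeal and choroid plexus lists had medians nearer 0 than the astrocyte and cell cycle lists, with single genes further out. The endothelial list had 5 of 6 lower in replicate 2 with a median of -0.13 and a sum of 169 TPM in replicate 2 and 181 in replicate 1. Its highest members Cldn5, Esam and Kdr were at 86.6, 32.4 and 18.9 TPM in replicate 2 and at 88.5, 35.5 and 22.25 TPM in replicate 1. The list of meninges and fibroblasts had 4 of 6 lower with a median of -0.10 and a sum of 277 in replicate 2 and 261 in replicate 1, but its genes went both ways, with log2 ratios that ran between -0.82 in Foxc1 and 0.58 in Col1a1. The collagen genes Col3a1, Col1a1 and Col1a2 were at 94.5, 70.6 and 65.75 TPM in replicate 2 and at 105, 49.1 and 53.2 TPM in replicate 1. Choroid plexus had 4 of 5 lower with a median of -0.21 and a sum of 369.9 in replicate 2 and 440.5 in replicate 1, nearly all of it the thyroid hormone carrier Ttr, at 341 TPM in replicate 2 and 410.2 in replicate 1. Folr1 was at 20.15 TPM in replicate 2 and 20.05 in replicate 1, Kcnj13 at 5.85 in replicate 2 and 6.73 in replicate 1, and the lowest ratio of that list was -0.70 in Kl, which was below 1 TPM in both. At 2-fold stood only Aqp4, among the astrocyte markers, which was higher in replicate 2. No gene of the cell cycle, endothelial, meningeal or choroid plexus lists did. The shares over all genes compared were 0.354% 2-fold or more higher and 0.291% 2-fold or more lower, and nothing is read from these counts. The part of these cell types in the values of the 4 genes was not tested.

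The stretch before the start site is shown, as a description, for the pair with a RefSeq promoter sequence, Gng8 and Tesc. Shared control of the 4 genes was not tested. Each is the 250 bases before the annotated start (GRCm38.p6, plus strand), chr7:16891536-16891785 for Gng8 and chr5:118027493-118027742 for Tesc, with capitals marking the GC box, GGGCGG on either strand.
Tesc: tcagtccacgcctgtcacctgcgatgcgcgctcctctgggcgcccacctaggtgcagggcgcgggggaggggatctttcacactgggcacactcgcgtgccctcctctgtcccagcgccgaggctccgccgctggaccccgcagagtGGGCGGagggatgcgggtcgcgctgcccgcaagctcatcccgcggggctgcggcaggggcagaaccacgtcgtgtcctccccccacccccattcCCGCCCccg
Gng8: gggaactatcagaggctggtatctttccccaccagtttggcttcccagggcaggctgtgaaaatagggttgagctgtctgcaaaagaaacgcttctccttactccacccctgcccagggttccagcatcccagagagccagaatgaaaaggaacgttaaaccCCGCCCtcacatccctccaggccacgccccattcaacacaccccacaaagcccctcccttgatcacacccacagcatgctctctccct

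The stretches differed in composition. That of Tesc had 73.2% G and C and 26 CG pairs, more pairs than 90.4% of 32851 RefSeq promoters, and that of Gng8 had 56.0% and 4 pairs, more than 37.8%. Tesc had 2 matches to the GC box and Gng8 had 1, and 32.7% of promoters hold at least 1. Neither stretch held a CCAAT box (CCAAT, in 33.8% of promoters), a TATA box (TATAAA, in 12.4%), the TCF/LEF motif CTTTGAT (in 3.21%) or the POU homeodomain letters ATAATTAAT (in 0.259%), each searched on both strands. The E-box, CANNTG, was found at 1 position in Tesc and at 0 in Gng8, and 66.2% of promoters hold it. These matches describe letters only.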

How the data were processed

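Per the deposited readme, alignment used mm10 and quantification used GENCODE M4. No source used here names the aligner or the quantifier. Per the file headers, the deposited tables hold expected counts (reads per feature, not normalized), TPM (on a fixed total that includes spike-ins) and FPKM (scaled by length and library reads). The deposited isoform shares are a percent within each gene's TPM. The authors' credibility bounds of TPM were read as a signal column of unstated level.

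Gene symbols and positions were taken from GENCODE M21 (GRCm38, the assembly of mm10) by identifier without version, and 884 genes had no symbol. For each ratio, 0.5 was added to the expected count of either pool, and TMM factors (edgeR 4.0.16, rounded expected counts of Ensembl genes) set the scale. Genes averaging under 50 expected counts were left out of ratios. Size factors of DESeq2 1.42.0, total and spike-in counts, other minimums and posterior means were alternatives. Intervals are exact binomial ones of the rounded counts at 95%. With 1 group, no test and no p-value was made. The ratio formula was also run on simulated counts of 14403 genes, of which 200 were changed. It put 100% of the changed genes and 1 unchanged gene past 2-fold. The simulated spread was set in advance and not taken from these pools, so this checks the formula only. Calculations ran in Python 3.11.15 and R 4.3.3.

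The 4 genes and the lists were chosen with earlier results of these data known. Named were the 4 genes, their families, the 3 highest genes of other lists and those below 1 TPM in both pools where counted, and the 3 genes nearest each of the 4, of which 1 is not reported here. Galr1, the genes at 2-fold or lowest in their list, and the genes of the closing part were named after their values were seen. Amino acid sequences were not used here.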

Additional observations from a re-analysis of the deposited data

How the results depend on the processing

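Of 28 alternative ratios of the 4 genes, 24 stayed within the counting interval of the value given, 4 moved and 0 reversed, and all 28 were below -1. Every alternative used the same pair of libraries, and the genes were chosen by this ratio, so the tally says nothing of stability between pools. Scaling by spike-in counts moved the log2 ratio of Gng8 to -2.50, Gpr151 to -2.15, Rspo3 to -3.08 and Tesc to -2.37, but it also shifted the median of all genes by -0.60, and relative to that shift the values were as before. With the minimum of the mean count at 10 in place of 50, 236 genes were 2-fold lower and 261 higher in replicate 2, against 42 and 51, and with any count 2276 and 2482. Posterior means changed the share of Tesc-201 to 53.9% and of Tesc-203 to 27.8%, against 63.2% and 30.5%.

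Leaving out a replicate gives the value of the other: 4.41 to 16.9 TPM for Gng8, 2.69 to 8.10 for Gpr151, 3.70 to 21.3 for Rspo3 and 5.65 to 20.0 for Tesc, and no ratio. With 2 replicates such a value always lies within 1 SD of the mean, so it says nothing of stability. No paired analysis was possible because there is 1 group. With 78 counts of Gng8 in replicate 2, counting error alone spans 2.89-fold to 4.88-fold lower.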

Other observations

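Of the 13 genes with the lowest ratios, down to that of Gpr151, 10 were protein-coding and 9 were not of the set; the following were named after their values were seen. Pmch, the precursor of melanin-concentrating hormone of the hypothalamus, was at 10.7 TPM in replicate 2 and 51.15 TPM in replicate 1 (log2 ratio -2.22). Robo3, a guidance receptor of commissural axons, had a log2 ratio of -2.06 on 296 counts in replicate 2 and 1090 in replicate 1, more than any of the 4 genes. Kcng4, a potassium channel subunit, was at 0.220 TPM in replicate 2 and 1.37 in replicate 1 (-2.62), and Neurog2 had -1.68. The embryonic globins Hbb-y and Hba-x had -1.87 and -1.77, on 60 and 38 counts in replicate 2 and 194 and 115 counts in replicate 1. Just above Gpr151 stood Zic5, a zinc finger factor, with 7.95 TPM in replicate 2 and 24.4 in replicate 1 (-1.55). The pseudogenes Gm15459 and Gm10171 were lowest, and the division of reads between them and their parent genes is uncertain.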
